A study of Canis lupus familiaris with 8 samples.

Results

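Some miRNAs are so widely expressed that they are used as reference genes when circulating miRNAs are measured by PCR. The listings of 5 such miRNA families on a serum array are described here, namely miR-191, miR-425, miR-423, miR-484 and the pair of miR-103 and miR-107. A listing is a name on the array, with the prefix cfa for a canine and mmu for a murine sequence. Listings were taken by name, without star names, and 9 of the 1224 miRNA names matched: cfa-miR-191, mmu-miR-191, cfa-miR-425, cfa-miR-423a, mmu-miR-423-3p, mmu-miR-484, cfa-miR-103, cfa-miR-107 and mmu-miR-107. The miR-423-5p name was not analysed here.

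Serum of 8 client-owned Doberman Pinschers was hybridized to 8 one-colour arrays, with 1 array per dog. The DCM group held 4 dogs with dilated cardiomyopathy (DCM) in the occult stage, in which the heart is changed without signs that an owner sees, on the arrays labelled DoCM5 to DoCM8. The control group held 4 healthy dogs on the arrays labelled Con1 to Con4. Per the labels the dogs were 7 to 11 years old, while the methods describe one younger DCM dog. All DCM dogs had received pimobendan and an ACE inhibitor together with sotalol or amiodarone, so that medication and disease cannot be told apart. The blood had clotted before the serum was taken. The slide carried the DCM sera in a row of their own and the control sera in a separate row, and an effect of the row cannot be told apart from that of the disease.

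A miRNA is a short RNA cut from a hairpin, and either strand of the hairpin can guide the repression of target mRNAs. Cells release miRNAs into blood in vesicles and bound to proteins, and lysis of blood cells adds more. No miRNA is accepted as constant in all sera, and a reference is therefore chosen by its spread over the samples and by the difference between the groups. In the dog gene table of the assembly UU_Cfam_GSD_1.0, MIR191 and MIR425 were each other's nearest miRNA gene. MIR423A lay within NSRP1, which encodes a splicing regulator. MIR107, MIR103-1 and MIR103-2 lay within PANK1, PANK3 and PANK2, which encode pantothenate kinases of coenzyme A synthesis. The mature miR-103 and miR-107 are nearly identical, and the array's probes for them may share signal.

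Each name had 40 features, and the signal of a feature is its brightness above background. Over the 8 arrays, between 10817 and 14000 of 48960 features were well above background according to the scanner software, and none was saturated. Of the 1224 names, 438 had a feature that the software placed well above background on 2 or more of the 4 arrays of either group, and 276 were well above background on all 8 arrays. The values below are glog2 values, a log2-like scale on which the arrays were calibrated to each other by the vsn model. A difference of 1 is a 2-fold change for bright names and can depart from a 2-fold change for dim ones. Levels of different listings were not compared, because probes differ in brightness. The array labelled DoCM5 was the brightest for these listings before normalization, with a mean log2 signal of 8.19 over the 9 listings against 5.42 to 7.05 on the other arrays. The study left out a DCM array, named DoCM8 there, whose expression stood apart and whose signals were intensified. In the files the array that meets this description is the one labelled DoCM5 and not the one labelled DoCM8. The array left out by the study is therefore taken to be DoCM5 here. The study describes the serum left out as that of a young dog, stored longest and very low in RNA yield. Labels may have been exchanged, so which dogs the arrays labelled DoCM5 and DoCM8 stand for is not known. Arrays are called as the files label them, and the results are given on all 8 arrays, without the array labelled DoCM8 and without the array labelled DoCM5. Markers of blood cells were detected in these sera, with 4 of 4 erythrocyte, 7 of 7 platelet and 6 of 6 leukocyte listings detected.

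All 9 listings were detected, with unequal support. For cfa-miR-191, cfa-miR-425, cfa-miR-423a, cfa-miR-103, cfa-miR-107 and mmu-miR-107, all 40 features were well above background on every array. For mmu-miR-484 this held for 32 to 40 features, depending on the array. The mmu-miR-423-3p listing rested on 20 kept features of 2 probes, and 6 to 25 of its 40 features were well above background. The mmu-miR-191 listing rested on 2 kept features, with 0 to 20 of 40 features well above background. At least 50% of its kept features were well above background on only 3 arrays, DoCM5, Con2 and Con3, and its values on the other 5 arrays are close to background. Replicate features of a probe differed little. Their median SD on the log2 scale of the raw signal lay between 0.07 for mmu-miR-107 and 0.18 for mmu-miR-423-3p, over the 8 listings in which it could be computed. This is the spread of features on 1 array and holds no error of extraction, labelling or hybridization.

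miR-191 is among the miRNAs used most often as a reference in blood. The cfa-miR-191 listing had glog2 values of 11.96, 11.01, 11.14 and 11.09 on DoCM5 to DoCM8 and of 11.20, 11.29, 11.52 and 11.71 on Con1 to Con4. Its values on DoCM6 to DoCM8 lay below those of all controls, and that on DoCM5 lay above all. The DCM arrays averaged 11.30 ± 0.44 (SD, n = 4), and the control arrays averaged 11.43 ± 0.23 (SD, n = 4). The log2 difference, DCM minus control, was -0.13, with a 95% confidence interval of -0.78 to 0.52. The mmu-miR-191 listing had glog2 values of 3.25, 1.69, 2.16 and 2.13 in DCM and 1.77, 3.14, 2.55 and 1.74 in controls. Its 2 features were kept because they were well above background on Con2 and Con3, so that high control values on these arrays were asked for by the filter. Between the groups it differed by 0.01 on the log2 scale, with an interval of -0.89 to 0.91. Without the filter on dim features, the DCM arrays averaged 1.23 ± 0.96 (SD, n = 4) and the controls 1.49 ± 0.22 (SD, n = 4), and the difference was -0.26, with an interval of -1.12 to 0.59.

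miR-425 is encoded next to miR-191. The cfa-miR-425 listing had glog2 values of 8.84, 7.63, 7.72 and 7.73 in DCM and 8.17, 7.73, 8.16 and 7.68 in controls. DoCM5 stood alone at the top, and the other DCM arrays lay within 0.10 of each other. On the log2 scale the difference was 0.05, with an interval of -0.67 to 0.76. The ratio of cfa-miR-191 to cfa-miR-425 on an array had an SD of 0.30 on the log2 scale over the 8 arrays, and ran from 3.02 on Con1 to 4.03 on Con4.

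miR-423 gives mature miRNAs from both strands of its hairpin, and miR-423-5p has been studied in plasma as a marker of heart failure. The mmu-miR-423-3p listing had glog2 values of 4.66, 2.93, 3.004 and 3.24 in DCM and 4.08, 3.67, 4.05 and 4.29 in controls. DoCM6, DoCM7 and DoCM8 lay below every control, and DoCM5 lay above every control. The group means were 3.46 ± 0.81 (SD, n = 4) and 4.02 ± 0.26 (SD, n = 4). DCM minus control gave -0.56 on the log2 scale, the largest of the 9 listings in size, with an interval of -1.40 to 0.28. The 2 probes that carried its kept features, scaled on the 75th percentile, gave log2 differences of -0.67 and -0.50. The cfa-miR-423a listing had glog2 values of 7.32, 6.81, 6.64 and 6.62 in DCM and 7.11, 7.04, 7.00 and 7.32 in controls. Here too DoCM6 to DoCM8 lay below every control, while DoCM5 lay at the level of Con4. DCM minus control gave -0.27 on the log2 scale, with an interval of -0.86 to 0.32.

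miR-484 has also been used as a reference in serum. The mmu-miR-484 listing had glog2 values of 5.32, 4.61, 4.31 and 4.37 in DCM and 4.83, 4.50, 5.06 and 4.71 in controls. The groups overlapped, with DoCM5 at the top. The log2 difference was -0.12, with an interval of -0.78 to 0.54. With the median in place of the mean over features it was -1.03, with an interval of -1.96 to -0.10 (unadjusted p = 0.0331 in limma, adjusted p = 0.984), and the groups still overlapped. That median fell in the dimmer of 2 probes on DoCM5 to DoCM8 and Con2, and in the brighter one on Con1, Con3 and Con4. The -1.03 thus compares different probes. Each probe alone, scaled on the 75th percentile, gave -0.15 and -0.06. Averaging per probe first gave -0.06, with an interval of -0.70 to 0.58.

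miR-103 and miR-107 are the near-identical miRNAs of the pantothenate kinase genes, and miR-103 is a common reference in tissue and blood. The cfa-miR-107 listing had glog2 values of 7.96, 7.50, 7.36 and 7.64 in DCM and 7.51, 6.99, 7.57 and 7.51 in controls. DoCM5 was the highest and Con2 the lowest, and the other 6 arrays lay between 7.36 and 7.64. The log2 difference was 0.22, with an interval of -0.37 to 0.82. The mmu-miR-107 listing followed it closely, with glog2 values of 7.80, 7.37, 7.20 and 7.42 in DCM and 7.29, 6.83, 7.45 and 7.34 in controls. The log2 difference was again 0.22, and the ratio of the canine to the murine listing had an SD of 0.04 over the 8 arrays. The cfa-miR-103 listing had glog2 values of 6.36, 4.29, 4.98 and 4.53 in DCM and 5.37, 4.42, 4.41 and 5.55 in controls. It did not follow miR-107, as the ratio of cfa-miR-103 to cfa-miR-107 had an SD of 0.60. Its values spanned 4.19-fold over the 8 arrays, against 1.96-fold for cfa-miR-107. The log2 difference of cfa-miR-103 was 0.10, with an interval of -0.90 to 1.11.

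**Figure D1:**
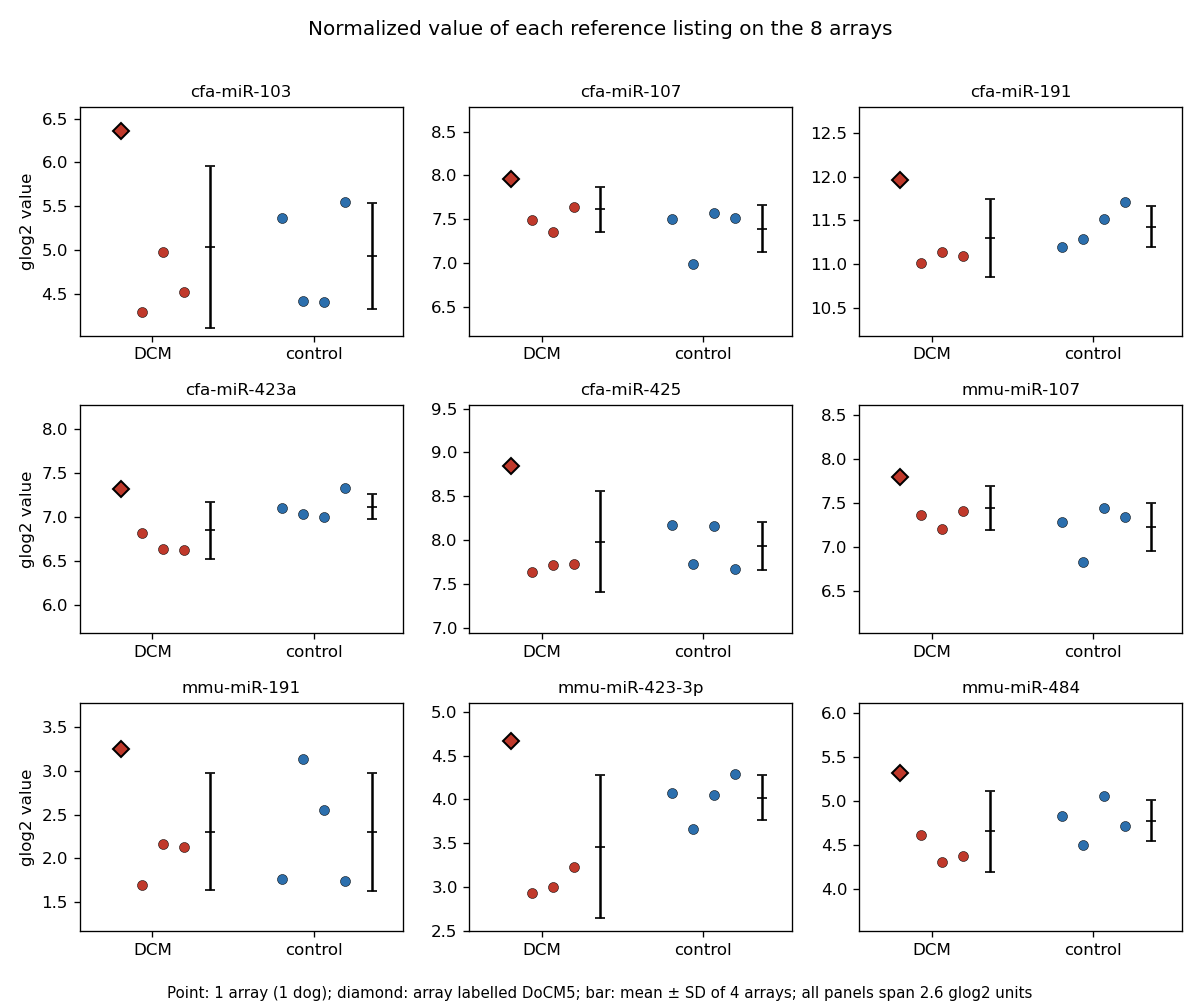
Normalized glog2 value (vertical axis) of each of the 9 listings in the DCM and the control group; each point is 1 array, the diamond is the array labelled DoCM5, and bars give mean ± SD (n = 4 arrays per group). DoCM5 is the highest DCM array in every panel, and in mmu-miR-423-3p the other 3 DCM arrays lie below all controls.

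In limma over all 438 detected names, 0 of the 9 listings passed an unadjusted p under 0.05, and hence 0 passed this limit together with a fold change over 1.5. The background was 17 of 438 names, or 3.88%, 8 higher and 9 lower in DCM. With the median over features 1 listing, mmu-miR-484, passed both limits, against 17 of 438 names, 6 higher and 11 lower. That call compares the dimmer of its 2 probes on all DCM arrays with mostly the brighter one in controls. With features averaged per probe first, mmu-miR-484 was at -0.06 (unadjusted p = 0.844 in limma), and 0 listings were called. With vsn and the mean over features, 0 of 438 names passed 0.05 in limma after Benjamini-Hochberg adjustment over all names. Before adjustment 18 names did so. Among the listings the lowest adjusted p was 0.961, for mmu-miR-423-3p (unadjusted p = 0.171). Exact two-sided permutation tests of each listing, in which 4 against 4 arrays cannot give a p below 0.0286, gave p between 0.171 and 0.971. In 0 of the 9 listings were the groups without overlap, against 2.74% of all names. Of the listings, 4 were lower and 5 higher in DCM, and the median log2 difference was 0.01, against -0.0007 over all detected names. These values do not show that the groups were alike. The intervals of all 9 listings reached past a 1.5-fold change, which is 0.585 on the log2 scale, in at least 1 direction.

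Without the array labelled DoCM8, 0 of the 9 listings were called, with a background of 2.74%. The log2 differences then lay between -0.50 for mmu-miR-423-3p and 0.26 for cfa-miR-103.

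Without the array labelled DoCM5, on arrays normalized again without it, 7 of 9 listings were lower in DCM, against 4 of 9 on all arrays. As DoCM5 was the highest DCM array in each listing, leaving it out lowers each DCM mean on an unchanged scale, and the shift is no separate result. The median log2 difference of the listings was -0.32, that of all detected names was -0.005, and that of 12 listings of other references in blood was -0.10, with 10 of the 12 lower in DCM. The mmu-miR-423-3p listing passed both limits in limma, with a log2 difference of -0.80 (95% confidence interval -1.23 to -0.37, unadjusted p = 0.00225, adjusted p = 0.308). In the exact two-sided permutation test of 3 against 4 arrays it gave the smallest p possible, 0.0286. On all arrays DoCM5 was the only DCM array not below every control in this listing. Leaving it out thus brings this p about, and the p adds nothing to that order of the arrays. The 3 DCM arrays averaged 3.25 ± 0.12 (SD, n = 3), and the controls averaged 4.05 ± 0.21 (SD, n = 4). The background without this array was 4.34% of 438 names, and 1 of 9 listings was called. Every DCM array lay below every control array in 3 listings, mmu-miR-423-3p, cfa-miR-423a and cfa-miR-191, and in 5.94% of all names. In each of these 3, DoCM5 was the only DCM array not below every control on all arrays. Leaving it out thus brings this count about, and the count is no separate result. The limma p-values of these listings without DoCM5 rest on the same step. The log2 difference of cfa-miR-423a was -0.42 (unadjusted p = 0.0429 in limma, adjusted p = 0.681), under the fold change limit. That of cfa-miR-191 was -0.35, with an interval of -0.78 to 0.08. With all 8 arrays weighted by their quality in limma, 1 of 9 listings was called, with a background of 7.76%. It was mmu-miR-423-3p, with a log2 difference of -0.86 (unadjusted p = 0.00396, adjusted p = 0.193). In that fit 7 of 9 listings were lower in DCM and their median log2 difference was -0.27, close to the fit without DoCM5. Such weights lower the part of an array that stands apart, so this call is no separate support. The miR-107 listings were the only ones above 0 without DoCM5, at 0.10 each.

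**Figure D2:**
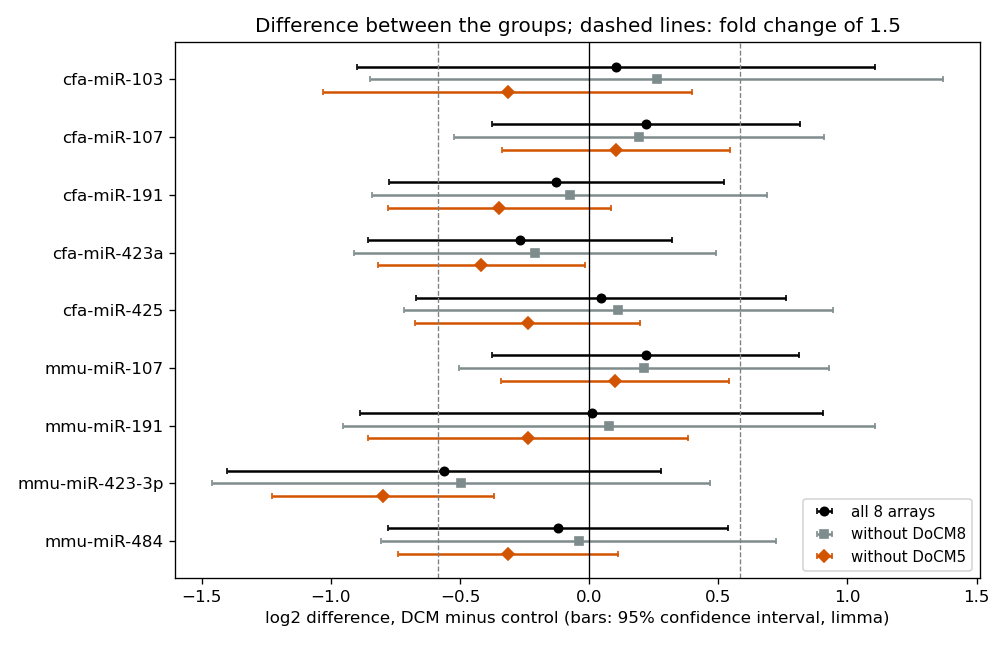
log2 difference between the groups, DCM minus control (horizontal axis), with its 95% confidence interval from limma, for each of the 9 listings on all 8 arrays, without DoCM8 and without DoCM5. Dashed lines mark a fold change of 1.5. Without DoCM5 the interval of mmu-miR-423-3p ends at -0.37.

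The spread over the 8 arrays separated the listings into those with a low and those with a high SD. The SD of the glog2 values was 0.27 in mmu-miR-107, cfa-miR-107 and cfa-miR-423a, 0.34 in cfa-miR-191 and 0.35 in mmu-miR-484. These 5 listings ranked between 35 and 92 of 438 names, counted from the smallest SD. It was 0.42 in cfa-miR-425, at rank 150. The SD was above the median of all detected names, 0.49, in mmu-miR-191 (0.62), mmu-miR-423-3p (0.64) and cfa-miR-103 (0.73). Values on single arrays ranged over 1.96-fold in cfa-miR-107 and over 1.63-fold in cfa-miR-423a. Of the 9 listings, mmu-miR-191 and mmu-miR-423-3p had the fewest features well above background, and their place depended on the scale. On a plain log2 scale with scaling on the 75th percentile over the 276 names, their SDs were 0.54 and 0.52. These lay below the median of all names there, 0.61. Under quantile normalization and median centring these listings stayed above the median of all names.

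The array labelled DoCM5 was high in most of the listings. DoCM5 had the highest value of the 8 arrays in 8 of the 9 listings, the exception being cfa-miR-423a, where Con4 and DoCM5 both read 7.32. Of all 438 detected names, 29.7% had their highest value on DoCM5. The listings lay 0.73 above their own means on DoCM5 on average, between 0.34 for cfa-miR-423a and 1.37 for cfa-miR-103, and the median of all names lay at -0.04 there. On DoCM6, DoCM7 and DoCM8 the listings lay 0.34, 0.27 and 0.24 below their own means on average, and 8, 9 and 7 of 9 were below. On the control arrays the average lay between -0.14 on Con2 and 0.11 on Con4. Leaving out DoCM5 lowered the median SD of the listings from 0.35 to 0.25, and that of all names from 0.49 to 0.33. Without DoCM5 the SD was 0.47 in cfa-miR-103, 0.38 in mmu-miR-191 and 0.22 in cfa-miR-425.

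**Figure D3:**
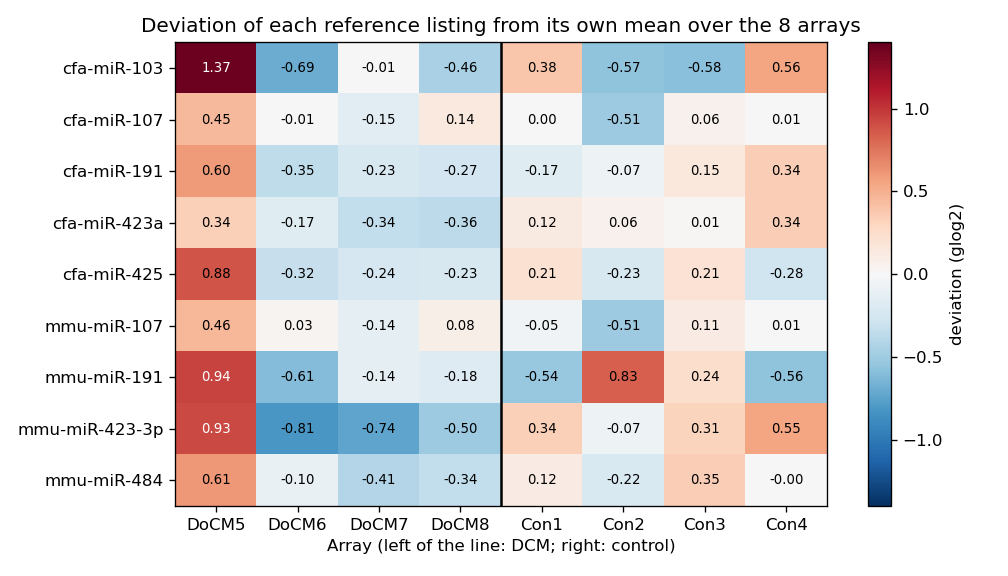
Deviation of the glog2 value of each listing (rows) on each array (columns) from the mean of that listing over the 8 arrays; red is above and blue below the mean. The DoCM5 column is red throughout, from 0.34 to 1.37, and the columns of the other DCM arrays are mostly blue.

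Markers of blood cells and of other tissues were also compared between DoCM5 and the other arrays. The log2 ratio of cfa-miR-451, a miRNA of red cells, to cfa-miR-23a, which is used as an index of red cell lysis, was 4.86 on DoCM5, 5.62 to 5.74 on the other DCM arrays and 5.19 to 5.89 on the control arrays. The DCM arrays averaged 5.48 ± 0.42 (SD, n = 4) and the controls 5.49 ± 0.31 (SD, n = 4), a difference of -0.01 (exact two-sided permutation test, p = 0.971). The log2 of the summed signal of the 4 erythrocyte listings, scaled on the 75th percentile, was 16.68 on DoCM5 and 16.81 to 17.35 on the other arrays. The brightest listings carry such a sum, and the mean glog2 value of the same 4 listings was 12.07 on DoCM5, below 12.34 on DoCM8 and above 11.12 to 11.85 on the other arrays. The same sum over the 7 platelet listings was 12.54 on DoCM5, 12.30 to 13.40 in the DCM group and 12.87 to 13.23 in the control group. The mean glog2 value of these platelet listings ran the other way, with 8.31 on DoCM5 and 7.50 to 8.003 on the other arrays, and DoCM5 was the highest array in 4 of the 7. Over the 6 leukocyte listings the log2 of the summed signal was 11.60 on DoCM5, the highest of the 8 arrays, 11.14 to 11.60 in the DCM group and 10.98 to 11.28 in the control group. Of the 9 heart and muscle listings 6 were detected, with no kept feature for cfa-miR-133a, cfa-miR-208a and cfa-miR-208b, and their sum was 6.91 to 7.83 in DCM and 6.96 to 8.85 in controls. The lowest of these values, 6.91, was that of DoCM5, whose mean glog2 value of 3.76 lay within the 3.32 to 5.24 of the other arrays. The 1 liver listing, of miR-122, had a sum of 4.79 on DoCM5 and of 5.31 to 7.74 on the other arrays. The part of these differences in the reference listings was not tested.

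The order of the listings by their spread was compared under several normalizations. Under vsn, scaling on the 75th percentile over the 276 names or over all names, quantile normalization, median centring and no normalization between arrays, cfa-miR-103 had the largest SD of the 9 listings, from 0.68 to 1.13. The smallest SD belonged to a miR-107 listing under vsn, quantile normalization and scaling over the 276 names, and to cfa-miR-423a under the other 3. The SD of cfa-miR-423a lay between 0.27 and 0.81 over these 6, and that of cfa-miR-107 between 0.24 and 0.87. Without any normalization the SD was above the median of all names, 0.75, in all 9 listings, and DoCM5 was the highest array in all 9. Scaling on the 75th percentile of all names left 1 listing below the median SD of 0.54, while scaling on that of the 276 names left 8 below a median of 0.61. DoCM5 was the highest array in 7 to 9 listings under these 6 normalizations, and in 25.1% to 41.8% of all names. Where each name was set against the mean of the other reference listings on the same array, DoCM5 was the highest array in 1 listing, and the largest SD was that of mmu-miR-191 (0.59). All 9 listings lay above their own means on DoCM5 under vsn, and this step subtracts that shared rise. The count of 1 is therefore no result about DoCM5. With quantile normalization after a normexp correction of the median signal, the largest SD was that of cfa-miR-191 (0.39), ahead of cfa-miR-103 (0.32), and the smallest was that of mmu-miR-191 (0.064). This correction adds an offset of 50, which compresses dim names such as mmu-miR-191. The order under it is therefore no measure of stability.

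**Figure D4:**
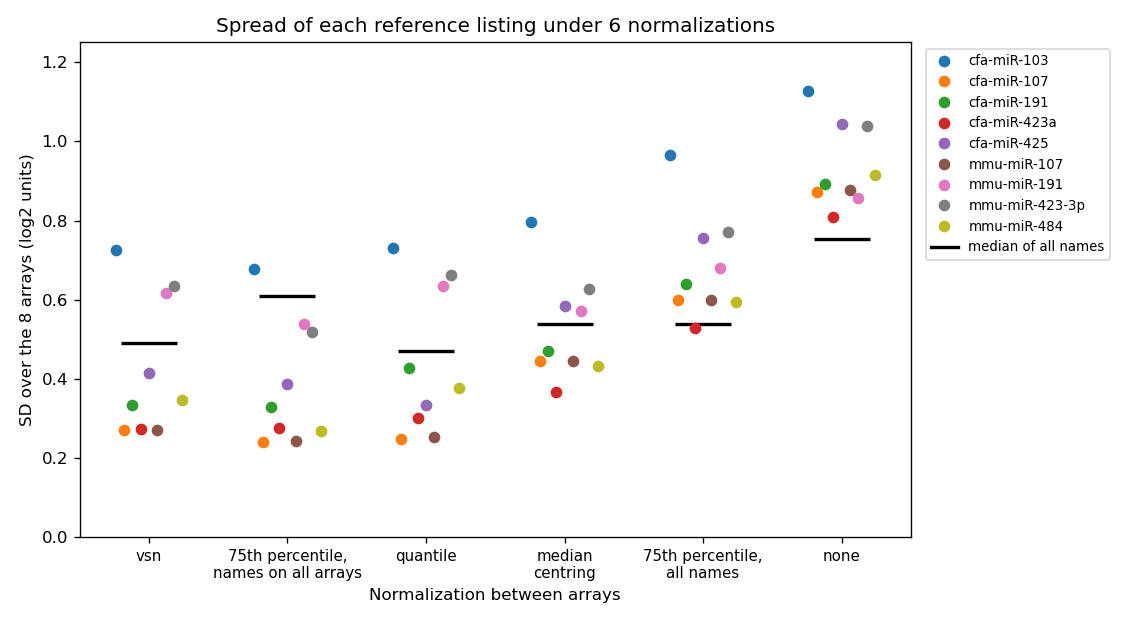
SD over the 8 arrays in log2 units (vertical axis) of each of the 9 listings under 6 normalizations between arrays; black lines give the median SD of all 438 names. cfa-miR-103 is the highest point under each of these 6, and without normalization all 9 points lie above the median of 0.75.

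A ratio of 2 listings on the same array hardly moves with the scaling of that array. Over the 36 pairs, the SD of the log2 ratio had a mean of 0.44. It was smallest for the pair of miR-107 listings (0.04), then for cfa-miR-191 with cfa-miR-423a (0.19) and for cfa-miR-425 with mmu-miR-484 (0.20). It was largest for cfa-miR-103 with mmu-miR-191 (0.85). Averaged over its 8 partners, the SD of the log2 ratio was 0.34 for cfa-miR-191 and for mmu-miR-484, 0.37 for cfa-miR-425, 0.38 for cfa-miR-423a and mmu-miR-107, and 0.39 for cfa-miR-107. These averages differ by little for 8 arrays, and the miR-107 listings gain from counting each other. The average was 0.49 for mmu-miR-423-3p, 0.60 for cfa-miR-103 and 0.64 for mmu-miR-191. Without DoCM5 the same 3 listings had the largest averages, and the mean over all pairs was 0.37. These orders did not hold with the median in place of the mean over features, where the SD was 0.61 for the pair of miR-107 listings and 0.91 for cfa-miR-191 with cfa-miR-423a, and where cfa-miR-191 had the largest average (0.94) and mmu-miR-484 averaged 0.84. Such a median falls in the probe that kept more features on the array. For cfa-miR-191 this was the brighter probe on DoCM6 and the dimmer one on Con1. These SDs therefore hold the difference in brightness between probes as well.

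**Figure D5:**
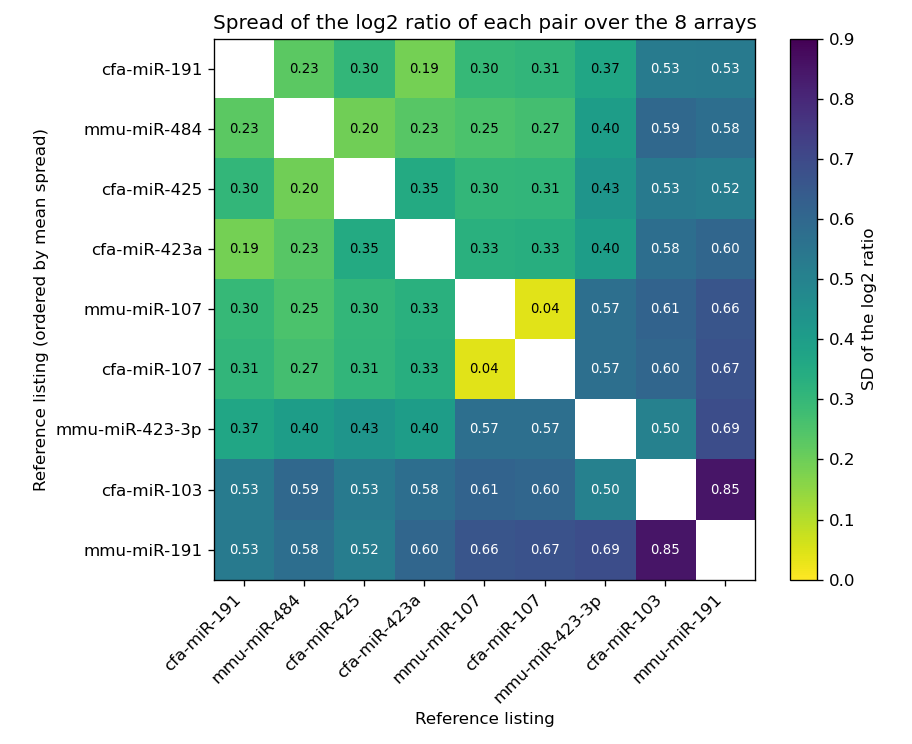
SD over the 8 arrays of the log2 ratio of each pair of listings, ordered by the mean over all partners. The pair of miR-107 listings is the palest cell at 0.04, and the rows of cfa-miR-103 and mmu-miR-191 are the darkest, with their shared cell at 0.85.

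For each listing, the names outside the list whose log2 ratio to it had the smallest SD were sought among the other 429 detected names. The nearest name was mmu-miR-92a for cfa-miR-191 (SD 0.17) and for cfa-miR-423a (0.17), cfa-let-7g for cfa-miR-425 (0.15) and cfa-miR-25 for mmu-miR-484 (0.13). It was cfa-miR-148a for cfa-miR-107 (0.11) and mmu-miR-107 (0.10). For mmu-miR-423-3p the nearest names were the passenger strands mmu-miR-18a* (0.18) and mmu-miR-93* (0.21), and for cfa-miR-103 they were cfa-let-7c (0.28) and cfa-miR-331 (0.30). For mmu-miR-191 even the nearest name, mmu-miR-29c*, had an SD of 0.41. The closest names of cfa-miR-103 and of the miR-107 listings were thus different ones.

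The passenger strands of the same hairpins were mostly dim. mmu-miR-103-1* and mmu-miR-107* had 0 kept features. mmu-miR-425* had 7 and mmu-miR-191* had 28 kept features of 40, and their log2 differences were 0.33 (unadjusted p = 0.434 in limma) and 0.19 (unadjusted p = 0.579).

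Other miRNAs are also used as references in blood. Of 12 detected listings of miR-16, miR-24, miR-25, miR-26a, miR-30e, miR-93, miR-320, miR-451, let-7a and let-7g, 0 were called in limma, against the background of 3.88%. Their median SD over the 8 arrays was 0.38, against 0.35 for the 9 reference listings. Below every one of the 9 listings under vsn were cfa-miR-24 (SD 0.10, the smallest of 438 names, at a low mean glog2 of 3.03 in both groups), cfa-miR-320 (0.14), mmu-miR-24 (0.21) and cfa-miR-451 (0.24). The SDs of these other references were not compared under the other normalizations. The log2 difference of cfa-miR-320 was -0.12, with an interval of -0.66 to 0.42. The highest array was DoCM5 in 9 of these 12 listings.

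The miRNAs that the study took to PCR, 5 in all, were then set against the mean of the 9 reference listings on the same array. The study chose them in part for their difference on these same arrays, so their values are a description, and a test of them on these arrays supports nothing. The reference mean was 7.05 on DoCM5 and between 5.98 and 6.43 on the other arrays. Relative to it, mmu-miR-142-3p, a leukocyte miRNA, was 1.34 above the controls in DCM on the log2 scale with groups that did not overlap, and without the reference mean the difference was 1.28. mmu-miR-144*, from an erythroid hairpin, differed by 1.41 with no overlap relative to the reference mean and by 1.36 without it. cfa-miR-21, a miRNA of fibrosis and inflammation, differed by 0.73 with overlap relative to the reference mean and by 0.68 without overlap when the reference mean was not subtracted. cfa-let-7c differed by -0.10 and cfa-miR-92a by -0.23 relative to the reference mean. That mean includes mmu-miR-191, which is close to background on 5 arrays. Relative to the mean of the 7 listings well above background on all arrays, mmu-miR-142-3p differed by 1.27 and mmu-miR-144* by 1.35, without overlap. Against the same 7, cfa-miR-21 differed by 0.66, cfa-let-7c by -0.17 and cfa-miR-92a by -0.29, with overlap. Without normalization between arrays and without the reference mean, the groups overlapped in all 5. Without DoCM5, cfa-miR-21 differed by 1.03, mmu-miR-142-3p by 1.37 and mmu-miR-144* by 1.404 relative to the reference mean, and in these 3 the groups did not overlap. Without DoCM5 the reference mean itself was 5.99 to 6.04 in DCM and 6.15 to 6.39 in controls, a difference of -0.27 that enters every target set against it.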

How the data were processed

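Serum RNA of 8 dogs was labelled with Cy3 and hybridized to 8 one-colour arrays. The authors deposited, per feature, the signal intensity with the background subtracted, unnormalized between arrays, and detection flags, made with Agilent Feature Extraction 10.7.3.1 per the labels. Groups were taken from the labels. Features detected above background on 2 or more arrays of either group were kept, outlier-flagged features were dropped array by array, and the mean signal per name was calibrated by an own implementation of vsn (least trimmed squares quantile 0.9, 5 slices, 7 iterations), tested on simulated data. limma 3.58.1 in R 4.3.3 was fitted on all 438 names. Calls needed an unadjusted p under 0.05 and a fold change over 1.5. Exact permutation tests used numpy 2.4.6, and figures matplotlib 3.10.9. The 9 listings that matched by name, the 3 closest names of each, and lists of other references and markers were named. The members and lists were chosen with earlier results of these data known. Alternatives covered the arrays, normalization, averaging and filter. Dogs were the replicates, and the number of arrays limits the precision. No sequence of these miRNAs was used here.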

Additional observations from a re-analysis of the deposited data

Results flagged for a closer look

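In 26 groups of 4 arrays examined for a value that stands far from the others, 5 had such a value. Chance alone gives about 1 in 20 for independent groups, and these 5 are not independent, as 4 rest on the array labelled DoCM5 and the mean of the listings contains cfa-miR-191 and cfa-miR-425. In the DCM group the array labelled DoCM5 stood apart in cfa-miR-191 (11.96 against 11.01 to 11.14), in cfa-miR-425 (8.84 against 7.63 to 7.73) and in the mean of the 9 reference listings (7.05 against 5.98 to 6.09). The same array stood apart at the low end in the log2 ratio of cfa-miR-451 to cfa-miR-23a (4.86 against 5.62 to 5.74). In the control group Con2 stood apart in cfa-miR-107 (6.99 against 7.51 to 7.57). The mmu-miR-107 listing had its lowest control value on Con2 as well, at 6.83.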

How the results depend on the processing

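The number of arrays limits every interval. No paired analysis was possible because no replicate number occurs in both groups. With the column of the slide as a block, which does not pair dogs, 18 names and 0 listings were called. The sign of small differences moved with the setting. With the median over features cfa-miR-103 was at -0.069, cfa-miR-423a at 0.19 and mmu-miR-484 at -1.03 (unadjusted p = 0.0331 in limma, adjusted p = 0.984, 1 of 9 listings called, background 3.88%). Where 2 probes of unequal brightness kept unequal numbers of features, this median falls in the probe that kept more. Which probe that was differed between arrays. All values with the median over features can hold such a change of probe. With array weights cfa-miR-103 was at -0.33, cfa-miR-425 at -0.25 and mmu-miR-191 at -0.078, and 1 listing was called. Scaling on the 75th percentile of all names gave 0.18 for cfa-miR-191, 0.027 for cfa-miR-423a and 0.13 for mmu-miR-484; that of the names on all arrays gave -0.23 for mmu-miR-191. Median centring gave 0.067 for cfa-miR-191, -0.062 for mmu-miR-191 and 0.024 for mmu-miR-484. No normalization gave 0.0080 for cfa-miR-191 and -0.12 for mmu-miR-191. No filter on dim features gave 0.045 for cfa-miR-191, -0.26 for mmu-miR-191 and 0.0031 for mmu-miR-484. Scaling on the spike-in control features, added after seeing the data, gave with dmr_3 and dmr_6 -0.27 for mmu-miR-191 and with dmr_285 and dmr_31a 0.55 for cfa-miR-191, 0.40 for cfa-miR-423a, 0.071 for mmu-miR-423-3p and 0.50 for mmu-miR-484; these shifted the median of all names by -0.22 and 0.47.

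When single arrays were dropped, the log2 difference ran from -0.32 to 0.37 for cfa-miR-103, -0.24 to 0.18 for cfa-miR-425, -0.24 to 0.27 for mmu-miR-191, -0.32 to 0.020 for mmu-miR-484, and -0.80 to -0.37 for mmu-miR-423-3p. The ratio of cfa-miR-451 to cfa-miR-23a differed by -0.12 to 0.19. Called listings ran from 0 to 1, called names from 12 to 29 (the latter without DoCM6) and PCR targets at an exact permutation p under 0.05 relative to the references, 2 on all arrays, from 1 to 3, although these were chosen on the same arrays; cfa-let-7c relative to the references ran from -0.28 to 0.024. Relative to the references, mmu-miR-144* stayed 1.26 to 1.60 higher with no overlap when a control array was left out, with an exact permutation p of 0.0571. It had the same p, with groups that overlapped, under the 75th percentile of the names on all arrays and without normalization. Without Con3 cfa-miR-92a was at -0.34 (exact permutation p = 0.0286, the smallest possible), and with any other array left out its groups overlapped. The p-values of these targets support nothing, because the study chose them in part on the same arrays.

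Names past both limits, 17 of 438 on all arrays, numbered 9 without normalization, 3 with normexp and quantile normalization of the median signal, 52 of 1224 without the filter, 10 of 319 with features well above background on all arrays, 34 with array weights, and 11 (dmr_3 and dmr_6) and 5 (dmr_285 and dmr_31a) with spike-in scaling. The median SD of the listings, 0.35, became 0.64 with the 75th percentile of all names, 0.89 without normalization, 0.19 with normexp and quantile normalization, 0.59 with the median over features, 0.60 without the filter, and 0.97 and 1.13 with spike-in scaling. The mean pair spread was 0.75 and cfa-let-7c was at 0.54 relative to the references with the median over features. Of the targets, only mmu-miR-142-3p passed 0.05 in the exact permutation test with the 75th percentile over the names on all arrays and without normalization (1 of 5 each). This too is a description, as the targets were chosen on the same arrays. After Benjamini-Hochberg adjustment, 1 of 438 names passed 0.05 in limma with the 75th percentile over the names on all arrays. With median centring 1 of 438 names did so. In both settings 0 of the listings passed. The planned normexp used the median signal, as the mean signal was not used here.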
